A study of Mus musculus with 10 samples.

Results

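The genes described here encode enzymes of the tricarboxylic acid (TCA) cycle: Cs, Idh2, Idh3a, Idh3g, Ogdh, Sucla2, Suclg1, Fh1 and Mdh2. They were chosen by name, and every probe set annotated with 1 of these symbols and no other was taken, which gave 15 probe sets of the 22690 on the array, for 9 of 12393 genes. Cs and Idh3a had 3 probe sets each, Idh3g and Mdh2 had 2 each, and the other 5 genes had 1. All 15 passed the filter on dim probe sets, which kept 13576 probe sets of 8365 genes, and the lowest of their signals in any mouse was 10797 against a floor of 104.

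The study measured right ventricular RNA of 129SV mice on Affymetrix arrays, 1 array per mouse, to ask whether the loss of 1 allele of plakoglobin, a desmosomal protein, alters the response of the heart to endurance training. Training was swimming in water of 35 °C on 6 occasions a week, lengthened from 5 to 90 minutes. The trained groups were 4 plakoglobin (+/-) mice and 4 wildtype littermates, each with 2 males and 2 females, all 6 months old. The untrained group was 1 plakoglobin (+/-) and 1 wildtype mouse, both female and 10 months old, so that age and training cannot be told apart. No label says which mice were littermates, so no pairing was used and p-values measure the spread between these mice.

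The TCA cycle runs in the mitochondrial matrix, where it oxidises the acetyl group of acetyl-CoA to carbon dioxide and passes the electrons to NADH and FADH2 for the respiratory chain. The heart draws most of its ATP from this route and is among the tissues richest in these enzymes, which are all encoded in the nucleus. Flux is set largely at citrate synthase, the NAD-dependent isocitrate dehydrogenase and the oxoglutarate dehydrogenase complex, by substrate, product and calcium rather than by transcript level alone.

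Promoter sequences of 8 of the 9 genes were found in a table from RefSeq (build GRCm38.p6), as 250 bases before to 50 after a transcription start, 13 promoters in all. Idh3a was not matched. Of these, 4 are printed, 5′ to 3′ on the strand of the gene: Idh3g and Sucla2 because both hold the letters of an NRF1 motif, the factor best known for driving nuclear genes of mitochondria, and Suclg1 and Fh1 because their signals varied most alike among the mice. They lie at chrX:73786848-73787147 (minus strand), chr14:73552536-73552835 (plus), chr6:73248255-73248554 (plus) and chr1:175625586-175625885 (minus). Capitals mark every match to a motif searched, on either strand.
Idh3g: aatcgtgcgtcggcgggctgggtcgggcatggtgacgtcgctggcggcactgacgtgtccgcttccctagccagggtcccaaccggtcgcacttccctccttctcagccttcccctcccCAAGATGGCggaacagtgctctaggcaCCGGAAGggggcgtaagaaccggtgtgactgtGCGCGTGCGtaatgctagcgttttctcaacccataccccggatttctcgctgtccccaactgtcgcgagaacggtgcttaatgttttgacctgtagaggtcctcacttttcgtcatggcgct
Sucla2: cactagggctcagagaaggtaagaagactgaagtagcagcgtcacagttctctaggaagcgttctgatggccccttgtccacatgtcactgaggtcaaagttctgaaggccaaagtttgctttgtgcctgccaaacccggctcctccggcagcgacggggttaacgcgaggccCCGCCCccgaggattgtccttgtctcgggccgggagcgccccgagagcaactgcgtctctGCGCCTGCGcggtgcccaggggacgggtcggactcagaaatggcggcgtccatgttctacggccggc
Suclg1: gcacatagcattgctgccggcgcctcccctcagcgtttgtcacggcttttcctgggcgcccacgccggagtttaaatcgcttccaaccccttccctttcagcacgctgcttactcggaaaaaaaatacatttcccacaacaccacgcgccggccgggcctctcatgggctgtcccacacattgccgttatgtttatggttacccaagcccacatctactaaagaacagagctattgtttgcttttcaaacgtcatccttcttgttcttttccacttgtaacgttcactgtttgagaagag
Fh1: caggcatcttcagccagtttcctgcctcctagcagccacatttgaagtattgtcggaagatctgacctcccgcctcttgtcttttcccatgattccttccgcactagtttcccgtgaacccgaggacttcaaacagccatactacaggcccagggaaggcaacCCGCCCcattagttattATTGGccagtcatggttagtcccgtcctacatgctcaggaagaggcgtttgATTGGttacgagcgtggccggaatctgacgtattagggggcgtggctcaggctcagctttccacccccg
The NRF1 letters GCGCNTGCG stood in promoters of Idh3g, Ogdh and Sucla2, and in 6.31% of the 32851 promoters in the table. Idh3g also held CCGGAAG, the letters of a GABP motif (8.86% of all promoters), and GCCATNTTG, those of YY1 (2.51%), in its reverse orientation. The GC box GGGCGG, bound by SP1, stood in Cs, Fh1, Idh2, Mdh2, Ogdh and Sucla2 (35.66% of all promoters), and CCAAT, the NF-Y box, in Cs, Fh1, Idh2 and Ogdh (37.41%). The CREB site TGACGTCA stood in Mdh2 and Ogdh (1.79%). TNAAGGTCA, for the estrogen-related receptors, and TATAAA stood in none of the 13 windows, against 1.28% and 13.62% of all promoters. Suclg1 held none of the 8 motifs, while Fh1 held 1 GC box and 2 CCAAT boxes; matches of different motifs were allowed to overlap, and a match is a run of letters only. Ogdh had 6 of the 13 promoters, some of them overlapping. A gene was said to hold a motif if any of its promoters did, while the shares over the table are of single promoters. GC content of the 13 promoters ran from 49.3% to 72.3%, with a median of 59.7% against 52.7% over the table.

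Before any comparison, 3 arrays stood apart in the control probe sets for GAPDH, whose 3′ to 5′ signal ratio rises when RNA is broken or copied incompletely. The ratio was 17.8 in trained wildtype replicate 2 (female), 2.98 in trained plakoglobin (+/-) replicate 1 (male) and 2.50 in trained wildtype replicate 1 (male), and between 0.849 and 1.02 in the other 7. The actin 3′ to 5′ ratio was high in those males (2.65 and 3.05) but 1.29 in that female, against 0.932 to 1.24 in the other 7. Results are therefore given with all arrays and without these 3 where that matters. Markers of ventricular muscle were high in every mouse, with a summed signal of the 10 genes between 1715333 and 2382813, and none of 8 skeletal muscle markers passed the filter on dim probe sets. These markers show heart muscle and do not tell the right from the left ventricle. In whole ventricle, fewer cells of a type and less RNA per cell cannot be told apart.

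The TCA cycle genes were steady between mice. Over the 8 trained mice, the median standard deviation of log2 signal was 0.23 for the 15 probe sets, against 0.38 for all 13576 tested and 0.27 for the 1015 probe sets at least as bright as the dimmest of the 15. The steadiest was the representing (brightest) probe set of Idh3a, with 0.10, and the most variable 1 of the 3 of Cs (1422577_at), with 0.64 and a 2.95-fold span from the lowest to the highest of the 10 mice.

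**Figure D1:**
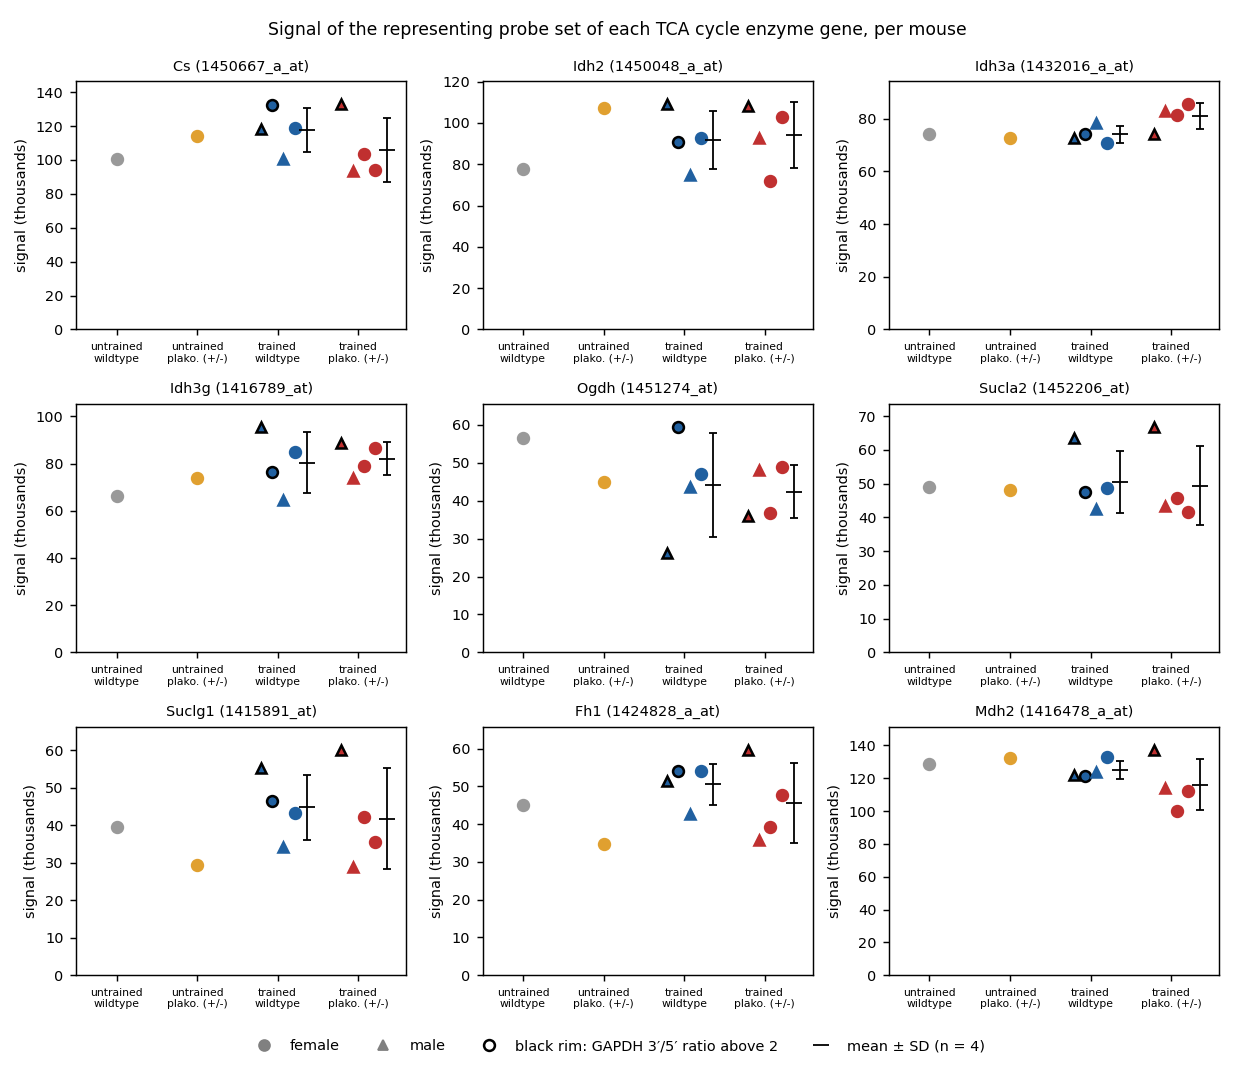
Signal (linear axis from 0) of the brightest probe set of each of the 9 genes in each of the 10 mice, by group ("plako." is plakoglobin); circles are females, triangles males, black rims the 3 arrays with a GAPDH ratio above 2, and black bars the mean ± SD of the 4 trained mice of a genotype. The trained groups overlap in all 9 panels, and the 2 rimmed males lie above the other 8 mice for Idh2, Idh3g, Sucla2 and Suclg1 and below them for Ogdh.

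The first question was whether trained plakoglobin (+/-) hearts differed from trained wildtype hearts in the TCA cycle genes. None of the 15 probe sets was called: the lowest adjusted p from limma rounded to 1, and none had an unadjusted p under 0.05. This does not show that the genes were level between the genotypes. The background was the same, with 0% of the 13576 probe sets called (273, or 2.01%, at an unadjusted p under 0.05). Fitted differences, plakoglobin (+/-) minus wildtype with sex in the model, ran from -0.17 to 0.33 on the log2 scale, 5 above and 10 below 0. Their median was -0.03 against 0.01 over all probe sets, and their median size 0.05 against 0.16. The median SE of the 15 was also smaller, 0.17 against 0.26, and sizes were not compared with probe sets of like brightness. No probe set separated the trained genotypes without overlap, which 1.6% of all probe sets did in either direction.

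Citrate synthase (Cs), which joins acetyl-CoA to oxaloacetate and so opens the cycle, had a representing signal (1450667_a_at) of 118480, 132614, 100653 and 118577 in trained wildtype replicates 1 to 4. In trained plakoglobin (+/-) replicates 1 to 4 it was 133080, 93379, 103551 and 93805. The highest value of all was that of a plakoglobin (+/-) male with a high GAPDH ratio, and the other 3 of its group lay below the wildtype mean. Group means were 117581 ± 13094 and 105954 ± 18684 (SD, n = 4 each), a log2 difference of -0.16 (SE 0.16, 95% interval -0.51 to 0.19). The other Cs probe sets differed in the opposite direction, by 0.05 (1422578_at, SE 0.13) and 0.33 (1422577_at, SE 0.35).

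Isocitrate is oxidised to oxoglutarate by the NAD-dependent enzyme, of which Idh3a encodes the catalytic and Idh3g a regulatory subunit, and by the NADP-dependent mitochondrial enzyme encoded by Idh2. The representing probe set of Idh3a (1432016_a_at) read 72859, 74257, 78509 and 70668 in trained wildtype and 74106, 82852, 81396 and 85651 in trained plakoglobin (+/-) mice. Of the plakoglobin (+/-) mice, 3 lay above all 4 wildtype mice and the lowest lay within their range, for a log2 difference of 0.13 (SE 0.12, interval -0.14 to 0.40). The other Idh3a probe sets differed by -0.03 and -0.01. Idh3g (1416789_at) averaged 80478 ± 13127 in wildtype and 82145 ± 6935 in plakoglobin (+/-) mice, and Idh2 91851 ± 14099 and 93991 ± 15970, with differences of 0.04 and 0.03. The groups overlapped for both genes.

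Ogdh encodes the decarboxylating subunit of the oxoglutarate dehydrogenase complex, and its trained group means of 44156 ± 13710 (wildtype) and 42445 ± 7031 (plakoglobin (+/-)) differed by -0.01 on the log2 scale. Succinyl-CoA synthetase, which makes succinate and a nucleoside triphosphate, is built from the alpha subunit encoded by Suclg1 and a beta subunit, the ADP-forming one from Sucla2. Suclg1 read 55193, 46560, 34293 and 43224 in trained wildtype and 60219, 28923, 42171 and 35517 in trained plakoglobin (+/-) mice, a difference of -0.14 (SE 0.24, interval -0.67 to 0.40). Each group had its highest value in its male of high GAPDH ratio, and the groups overlapped. Sucla2 differed by -0.04 (SE 0.18).

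Fumarase (Fh1) hydrates fumarate to malate, and malate dehydrogenase (Mdh2) regenerates oxaloacetate. Fh1 read 51553, 54014, 42670 and 53969 in trained wildtype and 59756, 35931, 39142 and 47679 in trained plakoglobin (+/-) mice. The plakoglobin (+/-) mice held both the highest and the lowest values, and the log2 difference of -0.17 (SE 0.18, interval -0.58 to 0.24) was the lowest of the 15. Without the 3 arrays of high GAPDH ratio it was -0.29 (SE 0.15, limma adjusted p = 0.791). Mdh2 (1416478_a_at) averaged 125053 ± 5354 and 115914 ± 15542, a difference of -0.12, and its other probe set differed by -0.08. Without the 3 arrays these were -0.24 (SE 0.14) and -0.26 (SE 0.16), both with a limma adjusted p of 0.822. For the 9 representing probe sets the intervals reached no further than -0.67 and 0.49, so that a change as large as 2-fold lay outside each of them; the widest of all 15, that of 1422577_at (Cs), reached 1.12.

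**Figure D2:**
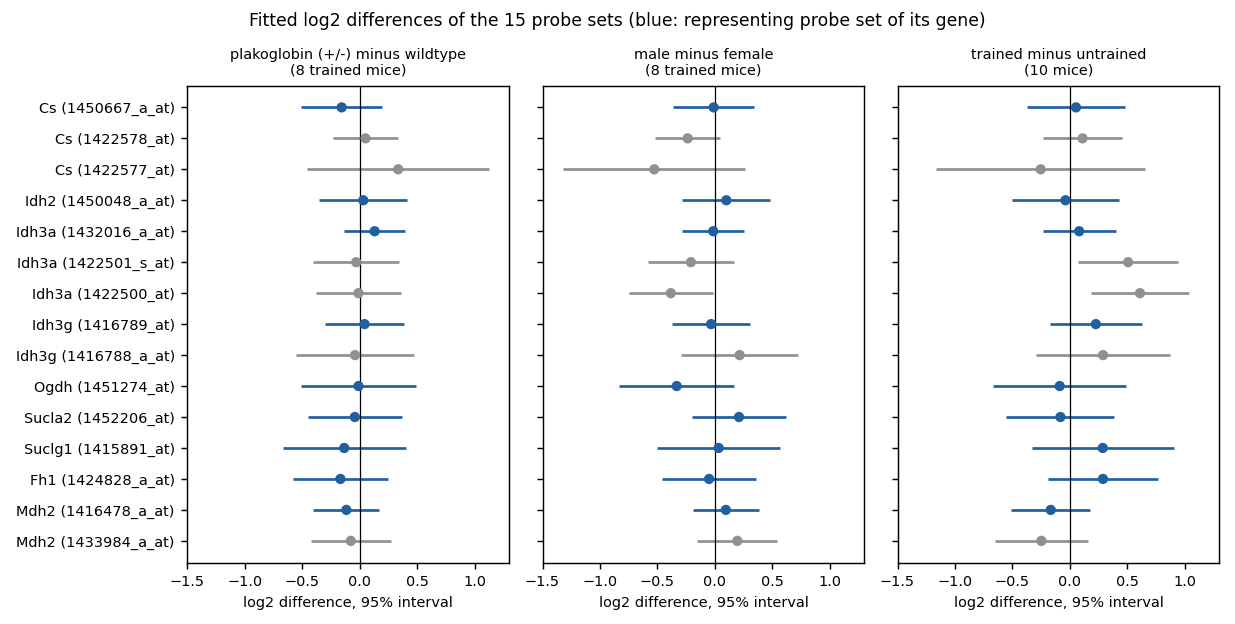
Fitted log2 differences (points) with 95% intervals (lines) of the 15 probe sets for genotype and sex among the 8 trained mice and for training over all 10 mice; blue marks the brightest probe set of each gene and grey the others. The genotype points lie between -0.17 and 0.33 with intervals that all include 0, and the intervals that leave out 0 are those of Idh3a 1422500_at for sex and of Idh3a 1422500_at and 1422501_s_at for training.

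Trained hearts were then set against the 2 untrained hearts. None of the 15 probe sets passed an adjusted p of 0.05 in limma, against 0.626% (85) of all probe sets tested, and 2 of the 15, both of Idh3a, had an unadjusted p under 0.05, as did 1178 (8.68%) of all. Differences ran from -0.25 to 0.61, with 9 above and 6 below 0 and a median of 0.08 against 0.00 over all probe sets. Since both untrained mice were female and sex was in the model, each difference equals that between the 4 trained and the 2 untrained females, with the males adding to the estimate of the spread.

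Idh3a gave the largest difference, but its 3 probe sets did not give the same one. At 1422500_at the untrained wildtype and plakoglobin (+/-) mice read 12693 and 10797. The trained females read 18383 and 17333 (wildtype) and 17547 and 18171 (plakoglobin (+/-)), and the trained males 12637 and 15081 (wildtype) and 11237 and 16377 (plakoglobin (+/-)). All 4 trained females thus lay above both untrained females, while 2 of the 4 males, those with high GAPDH ratios, lay below the untrained wildtype mouse. The log2 difference was 0.61 (SE 0.19, interval 0.19 to 1.03), or 1.53-fold, with a limma adjusted p of 0.319; without the 3 arrays of high GAPDH ratio it was 0.60 (SE 0.16, limma adjusted p = 0.0995).

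At 1422501_s_at, a design whose suffix marks probes that may match more than 1 transcript family, the untrained mice read 28999 and 23784 and the trained females between 33844 and 44673. The difference was 0.51 (SE 0.20, interval 0.07 to 0.94), with an adjusted p of 0.475 in limma. At the representing probe set, 1432016_a_at, the untrained mice read 74342 and 72776 and the trained females 74257, 70668, 81396 and 85651, which overlapped. The difference there was 0.08 (SE 0.14, interval -0.24 to 0.40). Over the 10 mice the first 2 probe sets correlated with r = 0.87 with each other, and with r = 0.50 (1422500_at) and 0.35 (1422501_s_at) with the representing one. Which transcripts of Idh3a each probe set reports was not tested.

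**Figure D3:**
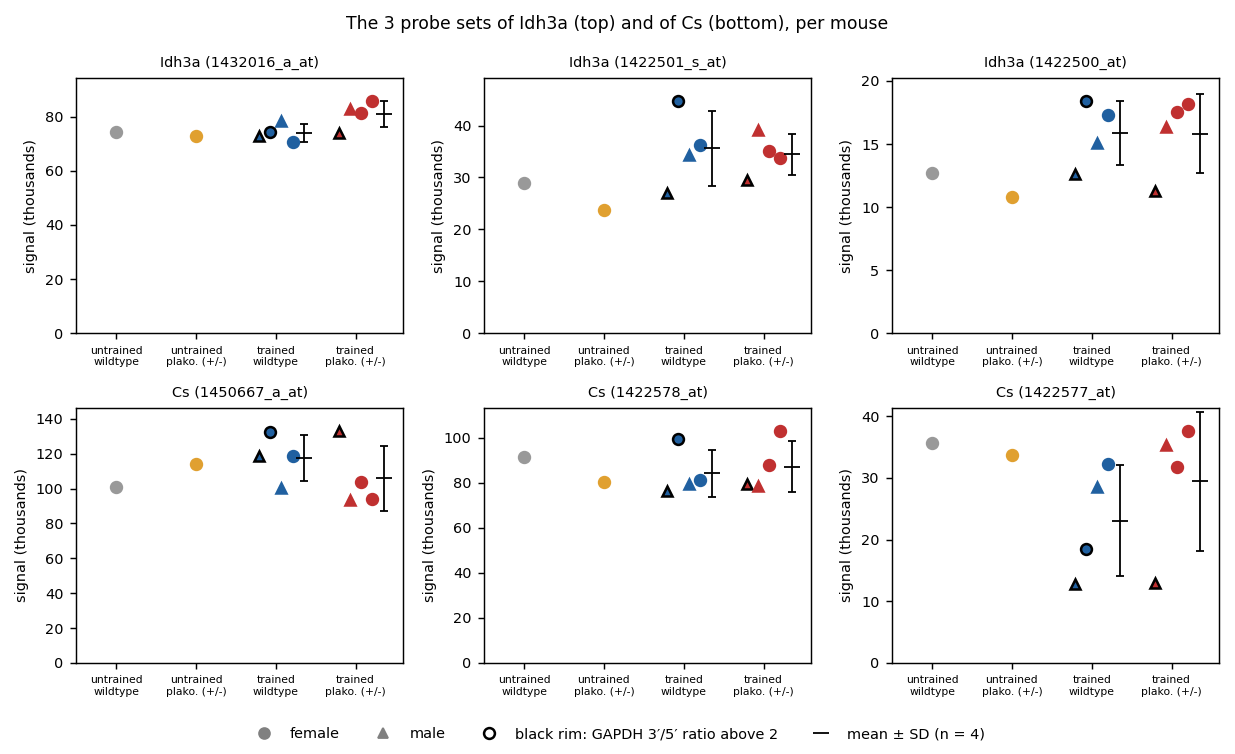
Signal (linear axes from 0, each panel with its own scale) of the 3 probe sets of Idh3a and of Cs in each mouse, by group; symbols as circles for females, triangles for males, black rims for the 3 arrays of high GAPDH ratio and bars for mean ± SD (n = 4). The untrained mice lie below the trained females in Idh3a 1422500_at and 1422501_s_at and not in 1432016_a_at, and the rimmed arrays are the 3 lowest in Cs 1422577_at but not in 1450667_a_at.

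Idh3g lay higher in trained hearts at both probe sets without passing the test. At 1416788_a_at the untrained mice read 55066 and 52060 and all 8 trained mice between 55188 and 105795, the only probe set of the 15 in which every trained mouse lay above both untrained mice. Of all probe sets tested, 4.63% had all 8 trained mice above and 4.61% below both. The lowest trained value exceeded the higher untrained one by a margin far smaller than the spread among trained mice, and the log2 difference was 0.29 (SE 0.27, limma adjusted p = 0.862). At 1416789_at the difference was 0.23 (SE 0.18, interval -0.17 to 0.62).

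Among the females alone, the 4 trained mice lay above both untrained mice in 4 of the 15 probe sets, those 2 of Idh3a and both of Idh3g, and below them in 1, Mdh2 1433984_a_at. The shares over all probe sets tested were 10.5% above and 10.3% below. All 5 belonged to genes of 2 enzymes, isocitrate dehydrogenase and malate dehydrogenase, and probe sets of 1 gene are not independent of each other.

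At the later steps no difference passed the test. Suclg1 read 39636 and 29502 in the untrained mice and 46560, 43224, 42171 and 35517 in the trained females, a difference of 0.29 (SE 0.28), and Fh1 45061 and 34757 against 54014, 53969, 39142 and 47679, also 0.29 (SE 0.22). For both genes the untrained plakoglobin (+/-) mouse was below all 4 trained females and the untrained wildtype mouse was among them. Mdh2 was lower at both probe sets, by values of -0.17 (SE 0.16) and -0.25 (SE 0.18), the latter -0.12 without the 3 arrays of high GAPDH ratio. Cs (0.05), Idh2 (-0.04), Ogdh (-0.09) and Sucla2 (-0.08) lay nearer 0 at their representing probe sets. Intervals for the 9 representing probe sets ran from -0.67 (Ogdh) to 0.90 (Suclg1), so the data do not show that these genes stayed level.

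The untrained pair, 1 mouse of each genotype and so without a replicate check, differed in both directions. The plakoglobin (+/-) mouse was higher in 4 and lower in 11 of the 15 probe sets, some of which report the same gene. The median log2 difference was -0.08 against -0.01 over all probe sets tested. The median size was 0.19 against 0.29. Idh2 read 107057 in it against 77804 in the wildtype mouse, a ratio of 1.38. Suclg1, Fh1 and Ogdh gave ratios of 0.744, 0.771 and 0.795. Whether the training difference itself differed between genotypes was tested as an interaction: 0 of the 15 probe sets and 0% of all were called (434 of all at an unadjusted p under 0.05, none of the 15), with SEs of 0.27 to 0.80 on the log2 scale for the 15.

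Males and females were compared among the 8 trained mice. None of the 15 probe sets was called, against 0.0516% (7) of all. Idh3a 1422500_at was lower in males, with 12637, 15081, 11237 and 16377 against 17333 to 18383 in females, and Cs 1422578_at was lower too, with 76464 to 79614 against 81152 to 102994. These 2 of the 15 separated the sexes without overlap, against 5.89% of all probe sets. The differences were -0.38 (SE 0.16, limma adjusted p = 0.554) and -0.24 (SE 0.13, adjusted p = 0.602), and without the 3 arrays -0.16 and -0.17. Without the 3 arrays, 7 of the 15 differences turned sign. Suclg1 went from 0.03 to -0.38 (limma adjusted p = 0.509), Ogdh from -0.33 to 0.06 and Sucla2 from 0.21 to -0.09. Whether genotype differences differed between the sexes was tested as an interaction: 0 of the 15 and 0% of all probe sets were called (361 of all at an unadjusted p under 0.05, none of the 15), with SEs of 0.26 to 0.75 for the 15. Of the 9 representing probe sets, 8 had an interaction above 0, with a median of 0.24 against -0.04 over all probe sets, for all 15 a median of 0.20, which was -0.06 without trained plakoglobin (+/-) replicate 1.

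In several of the genes 2 arrays lay apart from the rest. Both males with high GAPDH ratios, 1 of each genotype, also had high actin 3′ to 5′ ratios (3.05 and 2.65), and they lay above all 8 other mice in 5 of the 15 probe sets and below all 8 in 2. Over all probe sets tested the shares were 10.4% above and 11.3% below. Sucla2 read 63630 and 66868 in these males against 41612 to 48966 in the others, Idh2 109226 and 108238 against 72046 to 107057, and Suclg1 55193 and 60219 against 28923 to 46560. Of these, the values of both males lay farthest above the rest, relative to the spread of the other 8, in Sucla2. Both Idh3g probe sets were likewise highest in these males.

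In the opposite direction, Cs 1422577_at read 12735 and 12943 in them against 18529 to 37608 in the others, the lowest of these being the female with the GAPDH ratio of 17.8. Cs 1450667_a_at, which reports the same gene, had these 3 arrays among its 4 highest, at 118480, 133080 and 132614, and the 2 probe sets correlated with r = -0.76 over the 10 mice. Ogdh read 26305 and 36061 in the males against 36668 to 59536, its highest value being that same female. The 2 males also had the lowest summed cardiomyocyte markers (1762806 and 1715333, others from 1789887) and the lowest summed endothelial markers (23777 and 23735, others from 24526). They had a summed erythroid signal of 8151 and 8099 against 585 to 5665 in the others, with 1 of the 4 erythroid genes above the filter. Their summed leukocyte markers were 53568 and 47306 against 27495 to 47638, which overlapped. Cd14 read 10282.6 and 12146 in these males against 2037.3 to 3999.5 in the others, and Cd68 was also highest in them. Ptprc, Adgre1, C1qa, C1qb and Lyz2 lay within the others' range. Of the endothelial genes, Pecam1 and Emcn were lowest in these males, while Cdh5 and Egfl7 lay within the others' range. The part of these cell types in the members' values was not tested.

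**Figure D4:**
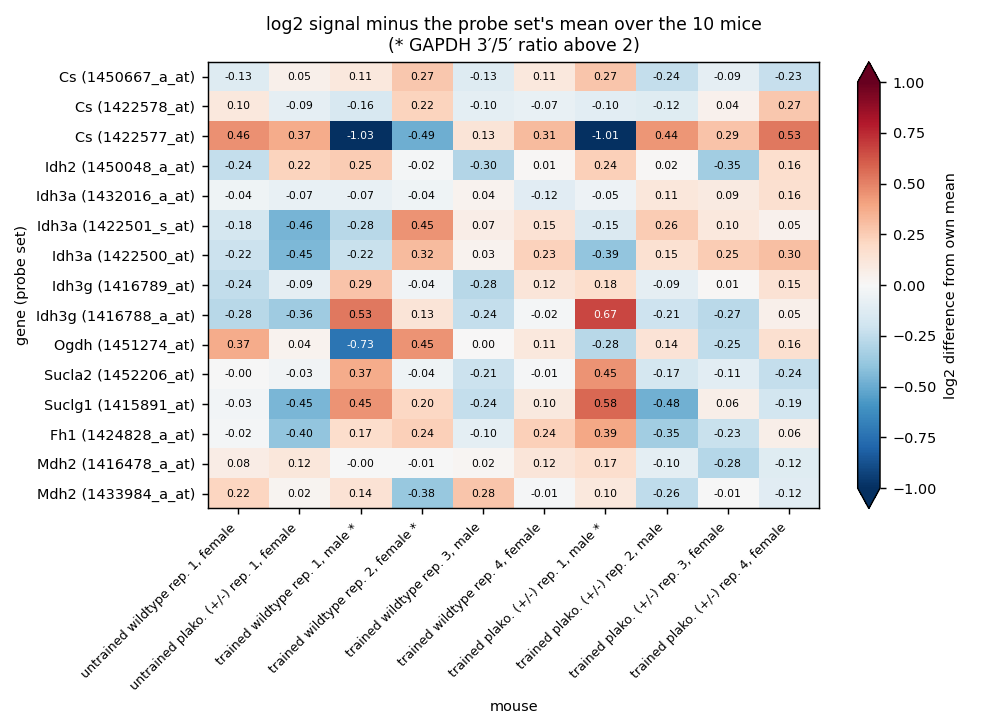
Map of log2 signal minus each probe set's own mean over the 10 mice, with the value in each cell, for the 15 probe sets (rows) and 10 mice (columns); red is above and blue below the mean, and stars mark the 3 arrays with a GAPDH ratio above 2. The columns of the 2 starred males hold the strongest colours, with -1.03 and -1.01 at Cs 1422577_at and 0.53 and 0.67 at Idh3g 1416788_a_at, while the row of Idh3a 1432016_a_at stays within 0.16 of 0.

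How far the 9 genes rose and fell together across mice was described by the 36 pairwise correlations of their representing probe sets. Of these, 22 were above 0, with a median r of 0.27, or 0.16 on the 7 arrays of low GAPDH ratio. The closest pair was Suclg1 and Fh1, with r = 0.85 and Spearman's rho = 0.87 over 10 mice (permutation test, adjusted p = 0.0740 and 0.0832 over the 36 pairs), r = 0.73 without the 2 mice farthest from the median of Suclg1, and r = 0.73 on the 7 arrays. Sucla2 and Suclg1, which encode the 2 subunits of 1 enzyme, gave r = 0.82 and rho = 0.68 (permutation test, adjusted p = 0.0740 and 0.128). For this pair r was 0.42 without the 2 mice farthest from the median of Sucla2, which were the 2 males of high GAPDH ratio. It was 0.35 on the 7 arrays, which leave out the same males. Whether r differed with and without these mice was not tested. The representing probe set of Idh3a had r below 0 with all but 1 (Ogdh) of the other genes: r was -0.77 with Mdh2 (rho = -0.77) and -0.76 with Cs (rho = -0.76), with adjusted p = 0.103 and 0.124 for r by permutation, and -0.82 and -0.88 on the 7 arrays. The value for Cs is that of 1450667_a_at, which itself had r = -0.76 with Cs 1422577_at. Correlations of Idh3a with the other Cs probe sets were not tested. None of the 36 pairs had an adjusted p under 0.05. Permutation was free over the 10 mice, so these p-values do not separate differences between groups or arrays from those between mice of a group.

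Averaged over the 9 genes, the centred log2 signal ran from -0.13 to 0.22 among the mice. The highest was trained plakoglobin (+/-) replicate 1, and the next were trained wildtype replicate 2 (0.11) and replicate 1 (0.09), the 3 arrays of high GAPDH ratio. Of 8356 other genes, the 10 whose signal followed this mean most closely over the 10 mice were Anapc5 (r = 0.97), Mrpl22 (0.96), D8Ertd738e (0.96), Timm23 (0.96), Ndufb11 (0.94), Pitpnc1 (0.94), Dnaja3 (0.94), Tada2a (0.94), Clns1a (0.93) and Nudt19 (0.93). These genes were picked as the highest of 8356 on these same mice, so high values of r follow in part from the choice. On the 7 arrays alone their r ran from 0.81 (Dnaja3) to 0.95 (D8Ertd738e). Those arrays are among the 10 used to pick the genes and give no separate check. The mean centred log2 signal of all probe sets tested went the other way on the 3 arrays of high GAPDH ratio. It was -0.100 in trained plakoglobin (+/-) replicate 1, and -0.092 and -0.036 in trained wildtype replicates 2 and 1. In the other 7 mice it ran from -0.0017 to 0.071. The part of this array-wide shift in the members' mean and in these correlations was not tested.

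A further 8 genes of the TCA cycle were tested as a list. None rose or fell with genotype, sex, training or either interaction at an adjusted p under 0.05 in limma. With training, 7 of the 8 had values below 0, with a median of -0.14. Sdha and Sdhb, subunits of succinate dehydrogenase, which joins the cycle to the respiratory chain, had the lowest p-values: Sdha read 93650 and 99503 in the untrained mice and 61603 to 83459 in the 8 trained mice, and Sdhb 171154 and 215374 against 137656 to 165351. The 2 groups did not overlap in either gene, a separation that 4.61% of all probe sets tested had in the same direction. The differences were -0.40 and -0.38 (SE 0.16 and 0.15), with adjusted p = 0.482 and 0.480. Idh3b, which encodes the remaining subunit of the NAD-dependent isocitrate dehydrogenase, gave 0.31 (SE 0.16), the same sign as Idh3a and Idh3g. With genotype the median was -0.06, and the value farthest from 0 was -0.38 for Sdhc (SE 0.24), where 1 plakoglobin (+/-) mouse read 10983 and the other 9 mice 20800 to 26543.

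Of 18 enzymes and carriers that feed or drain the cycle, 14 were tested, and none rose or fell in any comparison. The lowest p-values for training were those of Aco1 (0.56, SE 0.27), Mdh1 (-0.30, SE 0.15), Glud1 (-0.40, SE 0.23) and Pdhb (-0.33, SE 0.20), with adjusted p from 0.607 to 0.744. All 10 regulators of mitochondrial genes were tested and none rose or fell in any comparison. With training, Ppargc1a, the coactivator that drives mitochondrial gene expression, gave 0.20 (SE 0.24), Nrf1 -0.36 (SE 0.43) and Tfam, the mitochondrial transcription factor, 0.18 (SE 0.28). Ppara, the lipid sensor that drives fatty acid oxidation, had the lowest p-value of this list (limma adjusted p = 0.730); it read 2402 and 2661 in the untrained and 83 to 1718 in the trained mice, 2 of which, both with high GAPDH ratios, read below the floor of 104, so no fold is given. Among the marker lists, 0 of 10 ventricular, 2 atrial, 7 endothelial, 8 leukocyte, 6 fibroblast, 2 adipocyte, 1 erythroid and 2 lung genes tested were called in any comparison. This does not show that the cell types stayed level. With training, 7 of 8 leukocyte, 8 of 10 ventricular, 6 of 7 endothelial and 5 of 6 fibroblast genes lay below 0. Their medians were -0.64, -0.11, -0.25 and -0.34. All 8 leukocyte genes were higher in males than in females, with a median of 0.48. With genotype, 4 leukocyte genes lay above and 4 below 0.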

How the data were processed

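Each of 10 mice had 1 Affymetrix array. The deposited intensity values are the authors' signals from MAS5 version 5.0, per the submitters' processing notes, on a linear scale; detection calls were not used here. All arrays share a trimmed mean of about 2501 (2% trimmed at each end), so they had been scaled alike, and no further scaling was applied. The probes' sequences and the array's age limit which transcripts a probe set reports, and a signal cannot be compared between probe sets.

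Signals below 104 (the 10th percentile of the table) were set to it before taking log2. The 64 control probe sets and those under the 40th percentile of mean log2 signal were left out, leaving 13576. limma 3.58.1 (R 4.3.3; lmFit, eBayes with trend) was fitted to all of these with Benjamini-Hochberg adjustment over all, two-sided, threshold 0.05: genotype and sex in the 8 trained mice, training with genotype and sex in all 10, and both interactions. Intervals are 95%. The fit was tested on simulated data. Pairwise correlations used 100000 permutations (scipy 1.17.1, two-sided).

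The members and lists were chosen with earlier results of these data known. All 9 members were named with every probe set, the brightest of a gene representing it; of 3 other lists (other TCA genes, entry and side enzymes, regulators) up to 4 genes of lowest p in a comparison, and the 10 genes most like the members' mean. Symbols came from the platform's annotation: 20393 probe sets had 1 symbol, 691 had several and 1606, the controls included, were not listed. Alternatives were quantile or loess scaling, other floors and filters, other eBayes settings, other sets of mice, each mouse left out, and the GAPDH ratio as a covariate or a limit. The number of arrays and the spread between them limit the precision.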

Additional observations from a re-analysis of the deposited data

Results flagged for a closer look

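Sucla2 (1452206_at) in trained plakoglobin (+/-) replicate 1, a male with a GAPDH 3′ to 5′ ratio of 2.98, read 66868 (66867.6), while the nearest of the other 3 mice of its group read 45616. This gap was 0.841 of the group's whole range, past Dixon's 95% critical value for 4 samples. Chance alone marks about 1 in 20 groups in this way. The rule was applied to both trained groups for each of the 15 probe sets and marked no other value. The trained wildtype male with a ratio of 2.50 read 63630, the second highest of the 10 mice.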

How the results depend on the processing

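None of the 15 probe sets was called in any of the 5 comparisons under any alternative run. Of 677 alternatives for single genes, 61 reversed a sign and 0 passed the threshold; the cause of each change was not tested. Reversed values are log2 differences of representing probe sets.

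For genotype, quantile scaling gave 0.083 for Ogdh and 0.055 for Sucla2, loess scaling 0.057 and 0.028, and the GAPDH covariate 0.024 and 0.044, with 0.0045 for Suclg1. Leaving out 1 mouse gave -0.10 to 0.16 for Idh2, -0.073 to 0.15 for Idh3g, -0.22 to 0.13 for Ogdh, -0.19 to 0.060 for Sucla2 and -0.36 to 0.060 for Suclg1.

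For sex, the count over all probe sets (7) became 13 with quantile scaling, 15 with the higher floor, 2 without the filter, 11 with the stricter filter, 1 without the trend, 17 without the 3 arrays, 16 with the GAPDH covariate and 15 with all 10 mice in the fit. With 1 mouse left out it was 1 without any of 5 mice (trained wildtype replicates 1, 2 and 4 and trained plakoglobin (+/-) replicates 3 and 4), and at most 12, without trained plakoglobin (+/-) replicate 2. Quantile scaling reversed Cs (0.018), Idh3a (0.097), Idh3g (0.045) and Fh1 (0.052), and so did loess scaling (0.086, 0.068, 0.050 and 0.015). Without the 3 arrays Idh2 (-0.071), Idh3a (0.059), Ogdh (0.061), Sucla2 (-0.086) and Suclg1 (-0.38) reversed, and with the covariate Cs (0.023). Leaving out 1 mouse gave -0.15 to 0.074 for the members' median and for Cs, -0.028 to 0.23 for Idh2, -0.052 to 0.033 for Idh3a, -0.15 to 0.080 for Idh3g, -0.19 to 0.23 for Suclg1 and -0.23 to 0.065 for Fh1.

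For training, the count (85) became 225 without the 3 arrays, 1 in wildtype and 2 in plakoglobin (+/-) mice alone, where fewer mice were fitted, and ran from 10 (without untrained plakoglobin (+/-) replicate 1) to 87 when 1 mouse was left out; it was 34 without the untrained wildtype mouse, and 51, 53 and 50 without trained plakoglobin (+/-) replicates 3 and 4 and trained wildtype replicate 4. Idh2 reversed with quantile scaling (0.048), without the sex term (0.011) and in wildtype mice (0.24), Cs without the 3 arrays (-0.018), with the covariate (-0.065) and in plakoglobin (+/-) mice (-0.21), Sucla2 without the sex term (0.022) and Idh3a in wildtype mice (-0.037). Leaving out 1 mouse gave -0.12 to 0.22 for Cs, -0.25 to 0.18 for Idh2 and -0.25 to 0.070 for Ogdh. Idh3a 1422500_at stayed between 0.42 and 0.73, with a lowest adjusted p of 0.0995 in limma.

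The members' median genotype-by-sex interaction (0.20) became 0.076 with the covariate and ran from -0.063 to 0.35 with 1 mouse left out. The median genotype-by-training interaction (0.16) became 0.30 with quantile and 0.28 with loess scaling, and its count over all probe sets (0) became 1, 66 and 1 with quantile scaling, without the filter and without the 3 arrays, and 0 to 1 with 1 mouse left out. That interaction could not be fitted without either untrained mouse. No paired analysis was possible because no label says which mice were littermates. Scaling moved the median of all probe sets by under 0.02. Signals of the 15 probe sets were far above the floor in every mouse.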
